A study of Mus musculus with 12 samples.

Results

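The transcriptional response of Piezo1 knockout macrophages to the fungus Candida albicans was measured over 10921 of the 25230 genes in the table. These are all genes that reached 1 TPM (transcript abundance scaled to library depth and gene length) in at least 3 of the 6 knockout libraries. The cells were mouse bone marrow derived macrophages, grown from the marrow of femur and tibia with M-CSF and recorded as CD11b+ F4/80+ by flow cytometry. There were 3 libraries of Piezo1 knockout cells labelled PBS and 3 of Piezo1 knockout cells labelled C. albicans, and 3 wild-type libraries with each treatment served for the comparison between genotypes. In the knockout, the resting libraries have PBS as their treatment label but DMSO in their titles. The labels do not settle which vehicle was added, so a vehicle effect and the response to the fungus cannot be told apart in the knockout. Wild-type resting libraries have PBS in their titles. Every difference between genotypes below therefore has the same limit. The dose of fungus, the time of exposure, the age of the mice, the way the knockout was made and the number of animals behind a library are likewise not given. The p-values therefore measure only the spread between these libraries, which may be technical.

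Piezo1 is a plasma membrane channel that opens under mechanical force and lets calcium and other cations into the cell. Macrophages sense Candida through C-type lectin receptors, which signal through Syk and Card9, and through Toll-like receptors, and both routes lead to the transcription factor NF-kB. NF-kB switches on genes of chemokines and cytokines, and at the same time genes of its own inhibitors, so that a response carries its own brake.

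Reads in genes lay between 16400119 and 25741091 in the 6 knockout libraries, and 1 read in a gene of median length was worth 0.0285 to 0.0445 TPM. Of the 10921 genes, 10390 reached 1 TPM in all 6 libraries and 158 in exactly 3, while 201 further genes reached it in 2 libraries and were not tested. In pairwise comparisons of reads, chi-square divided by its degrees of freedom was 1.75 to 2.99 between knockout replicates. It was 14.5 and 15.4 between replicate 1 of the wild-type C. albicans group and the other two, and that library enters every test below through the spread shared by the 4 groups. Of 16 macrophage markers 15 were tested, and their summed level was 25247 to 25493 TPM with PBS and 25762 to 26072 TPM with C. albicans. Of 12 neutrophil markers only S100a8 and Csf3r were tested, neither passed (0 at an unadjusted p under 0.05), and 4 of the 12 were at 0 in all 6 libraries. Their sum was 61.7 to 65.3 TPM with PBS and 59.6 to 65.7 TPM with C. albicans. Of 12 lymphocyte markers Cd4 alone was tested and it rose, from 8.05 ± 0.679 to 11.3 ± 0.935 TPM (SD, n = 3) (log2 fold change 0.44, SE 0.09, adjusted p = 0.00899), though not in every fit that left out 1 knockout library. The lymphocyte marker sum went from between 9.46 and 11.0 TPM to between 11.7 and 14.4 TPM. Of 12 stromal markers Pecam1 and Cdh5 were tested and neither passed (both at an unadjusted p under 0.05), with sums of 3.80 to 4.60 TPM and 5.37 to 6.48 TPM. Of 10 dendritic cell markers 3 were tested and none passed (1 at an unadjusted p under 0.05), with sums of 174 to 185 TPM and 162 to 167 TPM. The part of these cells in the results was not tested. In bulk RNA, fewer cells of a type and less RNA per cell cannot be told apart. Piezo1 transcript was still detected in the libraries labelled knockout, at 66.5, 62.4 and 67.5 TPM with PBS and 64.6, 64.3 and 65.7 TPM with C. albicans. In wild type it stood at 130.4, 134 and 139.6 TPM with PBS and 147, 132 and 132 TPM with C. albicans, so all knockout libraries lay below all wild-type libraries. A level over the whole gene does not show whether a deleted stretch is present. The 2 knockout groups overlapped, with a change of -0.01 on the log2 scale (adjusted p = 0.912).

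Windows before a RefSeq start of 6 strongly raised genes, chosen after their values were seen, are shown because NF-kB is a known regulator of cytokine and chemokine genes. In 3 of the 6 a match was found and in 3 none. Each run holds the 150 bases before the listed RefSeq transcription start in GRCm38.p6, the assembly that mm10 names. For Socs3 and Il1b that start is not the outer end of the RefSeq gene. The Socs3 run lies wholly inside the gene (117966079 to 117970336), and the Il1b run overlaps the gene's end at 129371164. Capitals mark matches to the 10-letter NF-kB consensus on either strand. Cxcl2 lies at chr5:90903749-90903898 on the plus strand, Cxcl1 at chr5:90891095-90891244 on the plus strand, Nfkbia at chr12:55492648-55492797 on the minus strand, Tnf at chr17:35202008-35202157 on the minus strand, Socs3 at chr11:117969367-117969516 on the minus strand and Il1b at chr2:129371140-129371289 on the minus strand.
Cxcl2: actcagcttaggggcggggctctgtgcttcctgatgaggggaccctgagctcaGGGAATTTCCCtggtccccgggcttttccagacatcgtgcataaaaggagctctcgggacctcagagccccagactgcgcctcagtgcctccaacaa
Cxcl1: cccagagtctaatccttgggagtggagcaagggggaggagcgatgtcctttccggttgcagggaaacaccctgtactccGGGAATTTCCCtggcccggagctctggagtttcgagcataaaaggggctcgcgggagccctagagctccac
Nfkbia: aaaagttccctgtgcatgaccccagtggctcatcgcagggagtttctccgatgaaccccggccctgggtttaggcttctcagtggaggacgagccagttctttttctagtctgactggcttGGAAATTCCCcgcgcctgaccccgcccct
Tnf: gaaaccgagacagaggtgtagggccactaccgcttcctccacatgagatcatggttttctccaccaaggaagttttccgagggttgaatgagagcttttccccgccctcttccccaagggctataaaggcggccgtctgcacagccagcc
Socs3: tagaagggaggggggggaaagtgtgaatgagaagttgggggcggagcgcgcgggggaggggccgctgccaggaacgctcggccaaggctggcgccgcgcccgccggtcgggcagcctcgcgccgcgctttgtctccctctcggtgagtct
Il1b: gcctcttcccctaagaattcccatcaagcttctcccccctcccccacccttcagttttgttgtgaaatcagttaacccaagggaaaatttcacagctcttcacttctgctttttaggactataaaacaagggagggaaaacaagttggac

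The first matching base stood 97 bases before the start in Cxcl2, 71 bases in Cxcl1 and 29 bases in Nfkbia. Cxcl2 and Cxcl1 carried the same 11 letters, which hold 2 overlapping matches. The Tnf, Socs3 and Il1b windows held no match, which says only that these letters are not in these windows. Over windows of 300 bases (250 before to 50 after the start, the first start listed per gene), 8751 of the tested genes had a sequence. Of 49 such genes raised at least 2-fold, 16 held an NF-kB match (32.7%), against 9.9% of the 8751 and 8.18% of all 27025 windows in the table. The share was 15.2% over the 349 raised genes with a window and 8.56% over 292 lowered genes. The AP-1 letters TGANTCA were found in 3 of the 49 (6.12%, against 4.94% of tested genes), the CRE letters TGACGTCA in 0 of 49 (against 3.42%) and the CArG box in 1 of 49 (2.04%, against 1.25%). Both strands were searched, and a match is a description of letters, not a bound site.

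C. albicans changed 819 genes in the knockout, 7.5% of those tested, at an adjusted p under 0.05. Of these, 452 rose (4.14% of those tested) and 367 fell (3.36%), and 2621 genes had an unadjusted p under 0.05. The 4.14% and 3.36% are the shares to set beside every list count below. The rises were the larger changes. Among raised genes the median log2 fold change was 0.40, and 77 of them rose at least 2-fold, 18 at least 4-fold. Among lowered genes the median was -0.23, which left them at a median of 84.5% of the PBS level, and only the short microRNA gene Mir7026, at 1.28, 1.6 and 6.02 TPM with PBS and 0, 0 and 0 TPM with C. albicans, fell by at least 2-fold. The median over all tested genes was -0.04. The 3 libraries of each group did not overlap in 818 of the 819 genes and in 3684 of all tested genes (33.7%). With median-ratio scaling the split was 628 higher and 183 lower, so 77.4% of calls were higher there against 55.2% here. The number of lowered genes was 99 without knockout PBS replicate 3, 129 without knockout C. albicans replicate 3, and 845 without wild-type C. albicans replicate 1, where 670 genes were higher.

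The 77 genes raised at least 2-fold had resting levels from 0 to 128 TPM with a median of 7.29 TPM, and 44 of them rested below 10 TPM. Their summed level was 1598, 1554 and 1609 TPM in the 3 PBS libraries and 4964, 4890 and 5011 TPM in the 3 C. albicans libraries. These are 0.155% to 0.161% and 0.489% to 0.501% of all transcripts. The rise of this sum follows from choosing the 77 genes for their rise in the same libraries. Those with a resting mean under 1 TPM, 14 genes, could pass the filter only with C. albicans libraries. The 25 named rises below were chosen for size among genes without overlap of the groups, and all 25 passed under every one of the 20 alternative settings.

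**Figure D1:**
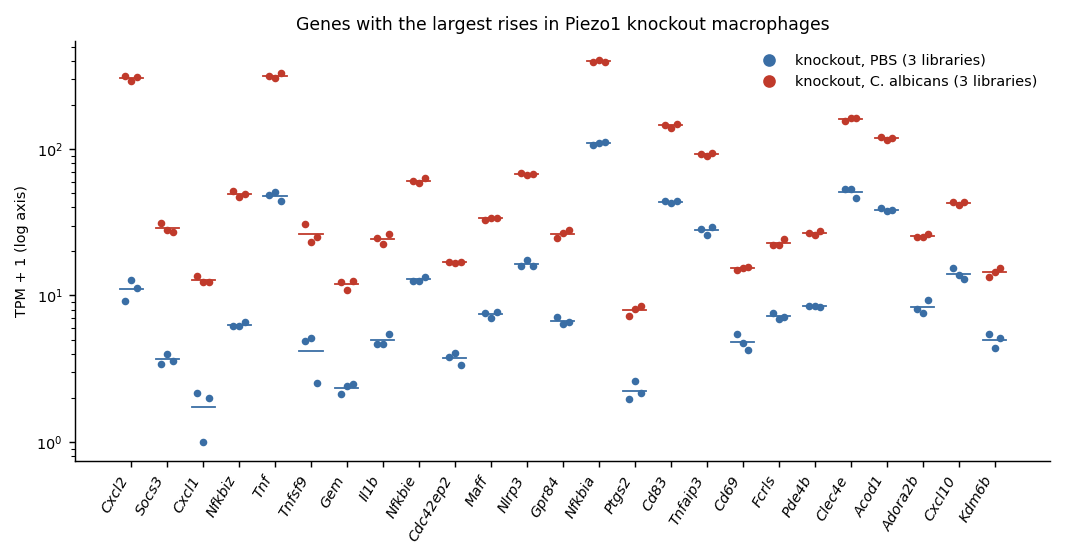
TPM + 1 on a log axis for the 25 genes with the largest rises in Piezo1 knockout macrophages, ordered by log2 fold change. Points are single libraries, 3 with PBS in blue and 3 with C. albicans in red, and bars are group means. No C. albicans library overlaps a PBS library in any of these genes, which the naming rule required.

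Chemokines that draw neutrophils held the largest single rise. Cxcl2, which encodes the chemokine MIP-2 and lies on chromosome 5 from 90903899 to 90905938, stood at 8.16, 11.7 and 10.2 TPM with PBS and 314, 289 and 309 TPM with C. albicans. All C. albicans libraries lay far above all PBS libraries, and Cxcl2 rose by 4.80 on the log2(TPM + 1) scale (SE 0.10, adjusted p = 6.18e-12), the largest rise of any tested gene. Cxcl1, its close relative some distance upstream on the same chromosome (90891245 to 90893121), stood at 1.17, 0 and 0.992 TPM with PBS and 12.6, 11.4 and 11.4 TPM with C. albicans. It was near the detection limit at rest, with 13, 0 and 7 reads, and rose by 2.97 (SE 0.22, adjusted p = 1.16e-06). Cxcl3 was low throughout, at 0.505, 1.05 and 0.396 TPM with PBS and 3.34, 3.05 and 3.48 TPM with C. albicans, and passed (log2 fold change 1.40, adjusted p = 0.0104), but not without knockout PBS replicate 3 (adjusted p = 0.0529). Of 7 genes in this list 4 were tested and 3 rose. The fourth, Pf4, encoding platelet factor 4, did not pass (0.15, adjusted p = 0.452). The list median was 2.18. Cxcl1 and Cxcl3 met the filter of 1 TPM only through the C. albicans libraries, so this median depends on the filter and was not ranked against other lists.

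Among chemokines for other leukocytes, both directions occurred. Cxcl10, a ligand for T cells, stood at 14.4, 12.9 and 12 TPM with PBS and 42.3, 40.4 and 42.7 TPM with C. albicans and rose by 1.61 (SE 0.15, adjusted p = 8.92e-06). Cxcl16 and Cx3cl1 rose by 0.14 and 0.60, but of the 3 rises in this list of 4 tested genes only 1 to 2 passed when any single knockout library was left out. Of 10 tested CC chemokines 4 rose and 2 fell (40% and 20%, against 4.14% and 3.36% of all tested genes). The list median was 0.34, and these counts held without each knockout library. The rises were the monocyte attractants Ccl2 and Ccl7 and the macrophage inflammatory proteins Ccl3 and Ccl4. Ccl3 stood at 129, 121 and 135 TPM with PBS and 368, 335 and 333 TPM with C. albicans and rose by 1.42 (SE 0.05, adjusted p = 1.03e-09). Ccl4 rose by 1.38, Ccl2 by 1.39 and Ccl7 by 1.14. Ccl5, the most abundant of the tested chemokines, moved the other way, from 4167, 4226 and 4156 TPM to 3683, 3800.2 and 3601 TPM. It fell by 0.18 (SE 0.02, adjusted p = 0.000346), and Ccl8 fell by 0.30. The summed level of the 13 CC chemokines was 5909 to 6051 TPM with PBS and 5790 to 6037 TPM with C. albicans.

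Among cytokines, 2 of 8 tested TNF family ligands, 2 of 7 interleukin-1 family members and 5 of 13 others rose. Tnf, encoding tumour necrosis factor and lying on chromosome 17 from 35199367 to 35202007, stood at 47.2, 49.6 and 42.9 TPM with PBS and 315, 302 and 329 TPM with C. albicans. It rose by 2.74 (SE 0.06, adjusted p = 5.75e-12), with no overlap of the groups. Tnfsf9, the ligand of the costimulatory receptor 4-1BB, rose by 2.72 (SE 0.23, adjusted p = 3.71e-06), and the other 6 tested TNF family ligands did not pass. Il1b, encoding interleukin-1 beta, stood at 3.69, 3.66 and 4.49 TPM with PBS and 23.7, 21.4 and 25.4 TPM with C. albicans and rose by 2.31 (SE 0.19, adjusted p = 2.72e-06). Il1a rose by 0.77, and the other 5 tested members of the interleukin-1 family did not pass, among them the antagonist Il1rn (0.04) and Il18 (-0.02). Nlrp3, the sensor of the inflammasome that matures interleukin-1 beta, stood at 14.8, 16.5 and 14.8 TPM with PBS and 67.1, 65.8 and 66.2 TPM with C. albicans. The groups did not overlap and Nlrp3 rose by 2.04 (SE 0.05, adjusted p = 4.76e-11). Casp4 rose by 0.50 and Mefv by 0.58, so 3 of 18 inflammasome genes rose (16.7%, against 4.14% of all tested genes). Casp1 (0.09), Pycard (-0.05) and Gsdmd (-0.03) did not pass. The 5 others that rose were Il10 by 1.28, Pdgfb by 1.27, Gdf15 by 1.12, Csf1 by 0.93 and Osm by 0.43. The anti-inflammatory cytokine gene Il10 went from 4.7 ± 0.254 to 12.9 ± 1.48 TPM (SD, n = 3). Il6, Il12b and Nos2, often used as activation markers, were under the test's minimum level. Their reads over the 3 libraries were 3, 5 and 43 with PBS and 8, 24 and 109 with C. albicans.

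Genes of NF-kB subunits, of their inhibitors and of a kinase of the pathway rose together with the cytokines. Of 15 tested NF-kB subunits and inhibitors 11 rose and none fell, with a median of 0.50, and 8 to 9 rose when single knockout libraries were left out. Nfkbiz, encoding the nuclear regulator IkB zeta, stood at 5.15, 5.23 and 5.63 TPM with PBS and 50.9, 46.3 and 48.3 TPM with C. albicans and rose by 2.97 (SE 0.10, adjusted p = 2.96e-10). Nfkbia, encoding the inhibitor IkB alpha, stood at 106, 108 and 111 TPM with PBS and 392, 405 and 394 TPM with C. albicans. It had the highest level of any of the 25 named rises and rose by 1.87 (SE 0.05, adjusted p = 5.24e-11). Nfkbie rose by 2.24, Nfkbid by 1.15, Bcl3 by 1.11 and Nfkbib by 0.24. Among the DNA-binding subunits Rel rose by 0.91, Relb by 0.56, Nfkb2 by 0.50 and Nfkb1 by 0.28, while Rela did not pass (0.16). Of the kinases, Ikbke rose by 0.28. Nfkb1 and Ikbke lost their calls in each of the 6 fits without 1 knockout library (adjusted p up to 0.144 and 0.133), and Nfkbib in 2 of them. The kinase genes Ikbkb (-0.04), Chuk (0.07) and Ikbkg (-0.03) did not pass.

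Of 17 ubiquitin editors of this pathway 6 rose and none fell, and the same number rose without each knockout library. Tnfaip3, encoding the deubiquitinase A20, stood at 27.6, 25 and 28.2 TPM with PBS and 92, 89 and 93.5 TPM with C. albicans and rose by 1.73 (SE 0.09, adjusted p = 2.46e-08). Its partners Tnip3 and Tnip1 rose by 1.26 and 0.39, Birc3 by 1.11, Traf1 by 1.03 and N4bp1 by 0.31. Of 16 genes that control the stability of cytokine mRNA 6 rose and 1 fell. Zc3h12a, encoding the RNase Regnase-1, rose by 1.02, its relative Zc3h12c by 1.12 and Zfp36, encoding tristetraprolin, by 0.63. Zfp36l2, of the same family as Zfp36, fell by 0.20.

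Brakes on cytokine and MAP kinase signalling rose as well. Socs3, an inhibitor of cytokine receptor signalling, stood at 2.42, 2.99 and 2.57 TPM with PBS and 30, 27 and 26.2 TPM with C. albicans. It rose by 2.97 (SE 0.08, adjusted p = 4.76e-11), with no overlap of the groups. Socs1 did not pass (0.20, adjusted p = 0.545). In the SOCS, Stat3 and interleukin-10 list 5 of 19 genes rose (26.3%, against 4.14% of all tested genes), and 4 rose in each fit without 1 knockout library. Of 14 MAP kinase phosphatases and Sprouty-type inhibitors 7 rose and none fell, with a median of 0.42. Dusp4 rose by 1.31, Dusp1 by 0.86, Dusp2 by 0.95 and Spred1 by 0.86. The kinase gene Pim1 rose by 0.89.

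Immediate early transcription factors rose in 14 of 27 tested members, none fell, and the median was 0.24. Maff, a small Maf protein, stood at 6.64, 6.03 and 6.73 TPM with PBS and 31.9, 32.9 and 32.9 TPM with C. albicans and rose by 2.17 (SE 0.10, adjusted p = 7.82e-09). Egr1, Egr2 and Egr3, zinc finger factors, rose by 1.43, 1.01 and 1.24, Nr4a1 by 1.03, Fos by 0.88, Junb by 0.75 and Jun by 0.36. Atf3 (-0.09), Fosl2 (0.02) and Jund (-0.09) did not pass. Kdm6b, a histone H3 lysine 27 demethylase gene, rose by 1.54, from 3.97 ± 0.552 to 13.4 ± 0.965 TPM (SD, n = 3). The microRNA host gene Mir155hg rose from 0.679, 0.934 and 0.532 TPM to 4.32, 4.41 and 4.8 TPM (log2 fold change 1.69, SE 0.22, adjusted p = 0.000282), with 10, 11 and 5 reads against 53, 61 and 65.

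Mir146, the miR-146a gene on chromosome 11 from 43374397 to 43374461, had no read in the 3 PBS libraries and 3, 9 and 8 reads in the 3 C. albicans libraries, and passed (adjusted p = 0.00382). These libraries of polyadenylated RNA do not measure the mature microRNA. Its mature sequences are shown because miR-146a is known to target adaptors of Toll-like receptor signalling through its seed. Capitals mark the seed, bases 2 to 8, in RefSeq's GRCm38.p6 entry.
miR-146a-5p: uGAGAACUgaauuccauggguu
miR-146a-3p: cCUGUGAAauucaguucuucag

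Most tested sensing receptors and members of their signalling chain did not pass. The shares that rose were 15.4% of C-type lectin receptors, 18.2% of Toll-like receptor genes and 17.2% of the chain. Over all tested genes 4.14% rose. The shares that fell were 0%, 4.55% and 6.90%, against 3.36% over all tested genes. Of 13 tested C-type lectin receptors 2 rose. Clec4e, the receptor Mincle, stood at 52.4, 52.7 and 45.6 TPM with PBS and 154, 162 and 162 TPM with C. albicans and rose by 1.65 (SE 0.13, adjusted p = 2.11e-06), and Clec2d rose by 0.41. The gene of Dectin-1, which binds fungal beta-glucan (Clec7a), did not pass at 0.09 (adjusted p = 0.286), nor did that of Dectin-2 (Clec4n) at 0.15 (adjusted p = 0.387). Tlr2 stood at 121, 107 and 118 TPM with PBS and 307, 322 and 329.6 TPM with C. albicans and rose by 1.46 (SE 0.04, adjusted p = 1.51e-10). Tlr1, its partner, rose by 0.67, Cd14 by 0.33 and Irak2 by 0.18, and Tirap fell by 0.28, while Tlr4 (-0.04) and Myd88 (0.05) did not pass. Among these 22 tested genes 4 rose and 1 fell. In each of the 6 fits without 1 knockout library 2 rose and none fell, and Cd14, Irak2 and Tirap lost their calls. In the chain from Syk to Card9, 5 of 29 genes rose and 2 fell, and 2 to 4 rose without single knockout libraries. Malt1 rose by 0.84 and Bcl10 by 0.37, and Syk (0.00) and Card9 (-0.18) did not pass.

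Further large rises came from genes of several lists or of none. Cd83, a marker of activated antigen-presenting cells, stood at 43.1, 42 and 42.9 TPM with PBS and 145, 139 and 148 TPM with C. albicans and rose by 1.73 (SE 0.08, adjusted p = 6.07e-09). Gpr84, which encodes a fatty acid receptor, rose by 1.98, the adenosine receptor gene Adora2b by 1.61, the activation marker gene Cd69 by 1.68 and the costimulatory gene Cd40 by 0.86. Icam1, an adhesion molecule for leukocytes, went from 61.2 ± 1.28 to 148 ± 1.12 TPM (SD, n = 3) and rose by 1.26. Acod1, which makes itaconate, stood at 38.6, 37 and 37.1 TPM with PBS and 119.5, 114 and 118 TPM with C. albicans. It rose by 1.61 (SE 0.10, adjusted p = 1.98e-07). Ptgs2, encoding cyclooxygenase 2, rose by 1.83 from 1.24 ± 0.334 to 6.93 ± 0.61 TPM (SD, n = 3), and the prostaglandin receptor gene Ptger4 by 1.03. Cflar, which restrains caspase 8, rose by 1.32, Mcl1 by 0.27 and Bcl2a1b by 0.43. Of 27 apoptosis inhibitors and Bcl-2 relatives 8 rose and 2 fell (29.6% and 7.41%, against 4.14% and 3.36% of all tested genes). The Bcl2a1 genes are near-identical copies, so the split of reads among them is uncertain. Gem, a small GTPase gene, rose by 2.35, Cdc42ep2, a Cdc42 effector gene, by 2.18, the phosphodiesterase gene Pde4b by 1.66 and the Fc receptor-like gene Fcrls by 1.66.

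In the smaller lists below, counts of 0 lie near the 7.5% of all tested genes that passed. Of 9 tested Hippo pathway genes 0 passed (3 at an unadjusted p under 0.05), of 16 mechanosensitive and swelling-gated channels 0 (5 at an unadjusted p under 0.05) and of 10 genes of the phagocyte NADPH oxidase 0 (6 at an unadjusted p under 0.05). Over all 10921 tested genes 2621 had an unadjusted p under 0.05, a smaller share than the 6 of 10 oxidase genes. When only the 6 knockout libraries were fitted, 5 oxidase genes were higher and 1 lower, and 1 channel gene was higher and 3 lower. In that fit 659 of the 10921 genes were higher and 781 lower. Of 3 tested caveolin and cavin genes 0 passed, none at an unadjusted p under 0.05. Of 19 genes of the calcineurin and NFAT pathway, which responds to calcium, 2 rose, Rcan1 by 0.23 and Orai2 by 0.38, and none of the NFAT genes passed.

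**Figure D2:**
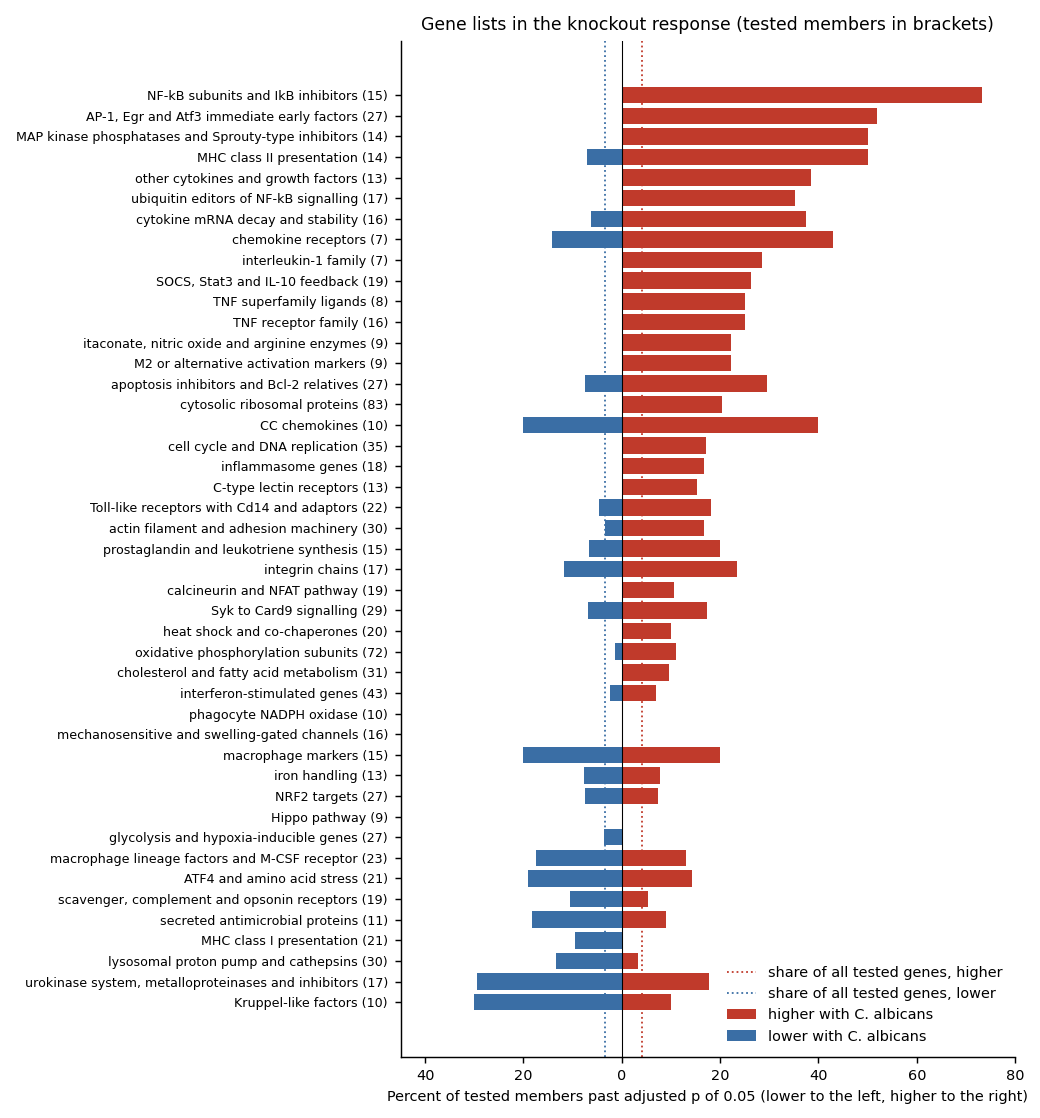
Share of tested members that passed in the knockout response, for lists with at least 7 tested members. Red bars to the right count rises, blue bars to the left count falls, and dotted lines mark the shares over all tested genes (4.14% and 3.36%). NF-kB subunits and inhibitors stand at the top, and lists share some members.

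Genes of antigen presentation by MHC class II rose in the knockout. H2-Ab1, a class II beta chain gene, stood at 120.0, 116 and 123 TPM with PBS and 176, 180.4 and 177 TPM with C. albicans. The groups did not overlap and it rose by 0.57 (SE 0.06, adjusted p = 2.03e-05). H2-Aa rose by 0.50, H2-Eb1 by 0.69 and the invariant chain gene Cd74 by 0.43. In wild type the same 4 genes did not pass, with log2 fold changes of -0.06, -0.01, -0.12 and -0.07, and the difference between genotypes passed in each (adjusted p = 0.00024, 0.00026, 0.000937 and 0.00107). Ifi30, a thiol reductase of the lysosome, fell by 0.22, and Ctss (-0.04) and the peptide loader H2-DMa (0.04) did not pass. Over the list 7 of 14 tested genes rose and 1 fell, with a median of 0.19, and the 3 rises outside the chains were Cd83, Cd40 and Cd80, of which Cd80 lost its call in 5 of the 6 fits without 1 knockout library. Among MHC class I genes 0 of 21 rose and 2 fell, Tap1 by 0.24 and H2-Q6 by 0.16, the latter 1 of several close copies with uncertain read assignment. These shares, 0% and 9.52%, rest on few genes and stand against 4.14% and 3.36% over all tested genes. H2-Q6 lost its call in each of the 6 fits without 1 knockout library (adjusted p up to 0.0987), where 1 gene of the list was lower. Dendritic cell and lymphocyte markers, whose cells also carry class II, are given above. Itgax, shared by macrophages and dendritic cells, did not pass (-0.02, adjusted p = 0.919).

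Macrophage identity genes moved by small amounts in both directions. Itgam, encoding CD11b, stood at 78.2, 76.2 and 79 TPM with PBS and 107, 103 and 106 TPM with C. albicans and rose by 0.43 (SE 0.03, adjusted p = 1.90e-06). In wild type Itgam stood at 137, 136 and 134 TPM with PBS and 130, 137 and 136 TPM with C. albicans. All knockout libraries lay below all wild-type libraries. Cebpa fell by 0.31 and Cebpb, of the same family, rose by 0.49. Csf1r (0.03), Spi1 (-0.01) and Adgre1 (-0.03) did not pass. Among abundant genes chosen after their values were seen, the complement genes C1qa, C1qb and C1qc rose by 0.23, 0.14 and 0.17, and Tmsb4x, encoding the actin-binding thymosin beta 4, went from 11464 ± 208 to 12881 ± 148 TPM (SD, n = 3). Without 1 knockout library C1qa lost its call in 3 of 6 fits and C1qb in 1. The change of Tmsb4x was the largest rise in absolute TPM of any tested gene.

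Cathepsins gave the largest fall in absolute TPM. Ctsd, encoding the lysosomal protease cathepsin D, stood at 21118, 21205 and 21307 TPM with PBS and 18658, 18983 and 18926 TPM with C. albicans. All C. albicans libraries were lower than all PBS libraries, and it fell by 0.17 (SE 0.02, adjusted p = 0.000625), to 88.9% of the PBS mean. Ctsl fell by 0.18, Ctsb by 0.10 and Lamp1 by 0.10. The summed level of the 30 lysosomal genes was 71053 to 71270 TPM with PBS and 65839 to 66545 TPM with C. albicans. Of the 30 genes 4 fell (13.3%, against 3.36% of all tested genes) and 1 rose (3.33%, against 4.14%). Without 1 knockout library between 2 and 5 were lower. With median-ratio scaling 2 fell. Ctsb and Lamp1 each lost their call in 5 of the 6 fits without 1 knockout library and under both other scalings. Gpnmb, a macrophage membrane glycoprotein gene chosen after its values were seen, fell by 0.12 but not in 3 of those 6 fits.

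Most ribosomal protein genes and respiratory chain subunits did not pass, but 20.5% and 11.1% rose, against 4.14% of all tested genes. The shares that fell were 0% and 1.39%, against 3.36%. Of 83 tested cytosolic ribosomal protein genes 17 rose and none fell, with a median of 0.05, and Rpl35a rose by 0.35. Ribosomal protein genes have many processed copies, so their read assignment is uncertain. Without 1 knockout library 7 to 15 rose. Of 72 oxidative phosphorylation subunits 8 rose and 1 fell, and without 1 knockout library 1 to 5 rose, with the variance trend off 2 and with no filter on low values 3. Of 27 glycolysis and hypoxia-inducible genes 0 rose and Gpi1 fell by 0.13. Gpi1 lost its call in 8 settings, among them median-ratio scaling and 4 of the fits without 1 knockout library. In the 6 knockout libraries alone 1 gene of the list was higher and 7 were lower, against 659 and 781 of all 10921 tested genes. Of 43 interferon-stimulated genes 3 rose and 1 fell, near the shares over all tested genes, with Irf1 the largest at 1.13. Of 35 cell cycle genes 6 rose (17.1%, against 4.14% of all tested genes). Among them were Ccnd1, by 0.62, and Mki67, by 0.75. The level of Mki67 stayed low, from 1.77 ± 0.121 to 3.67 ± 0.383 TPM (SD, n = 3).

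The largest falls were modest and came from genes of varied roles. Thbd, encoding the anticoagulant receptor thrombomodulin, stood at 23.9, 23.2 and 25.2 TPM with PBS and 14.8, 15.6 and 14.3 TPM with C. albicans. It fell by 0.66 (SE 0.07, adjusted p = 2.29e-05), to 61.8% of the PBS mean. Lcn2, encoding the siderophore-binding protein lipocalin 2, stood at 27.9, 23.9 and 27.4 TPM with PBS and 19.9, 16.8 and 15 TPM with C. albicans and fell by 0.60 (SE 0.10, adjusted p = 0.0026). Timp1, an inhibitor of metalloproteinases, fell by 0.56, and Maoa, encoding monoamine oxidase A, stood at 23.4, 24.2 and 23.1 TPM with PBS and 16.2, 17.3 and 15.9 TPM with C. albicans and fell by 0.49 (SE 0.07, adjusted p = 0.000361). The long noncoding RNA A530040E14Rik fell by 0.53, Mrgpre, a G protein-coupled receptor gene, by 0.53, and Rfng, a glycosyltransferase gene of the Notch pathway, by 0.50. Mfsd4b4, of a family of close copies, fell by 0.51. These 8 kept their call in all 20 alternative settings. The histone gene H2bu2 had the largest fall by the naming rule (-0.69, adjusted p = 0.0206), but it and Tsacc, Nhlrc1, Izumo4, Mtcp1, Cenpv and Lysmd1 each lost the call when some single knockout library was left out. Saa3, an abundant serum amyloid gene, fell from 1863, 1949 and 1850.3 TPM to 1585, 1519 and 1508 TPM (log2 fold change -0.30, SE 0.03, adjusted p = 2.29e-05).

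**Figure D3:**
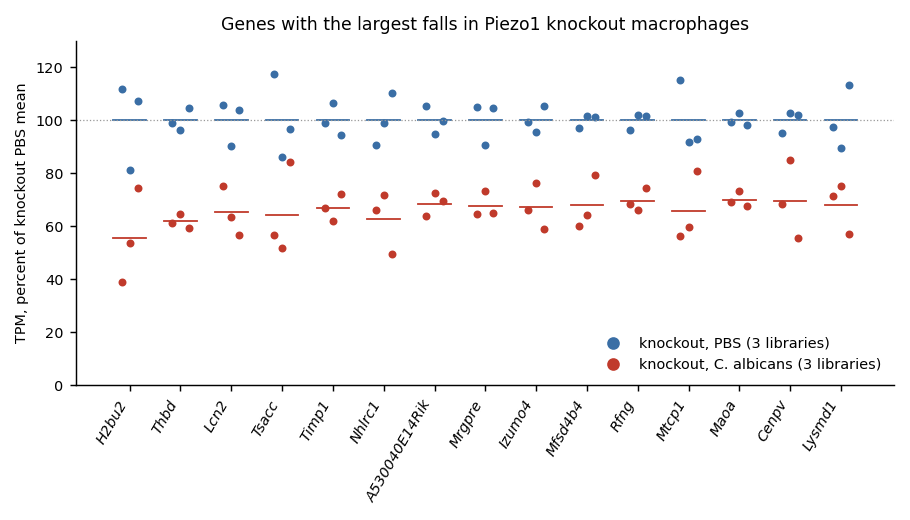
TPM as percent of the knockout PBS mean for the 15 genes with the largest falls in Piezo1 knockout macrophages. Points are single libraries, 3 with PBS in blue and 3 with C. albicans in red, and bars are group means. The C. albicans means lie between 55.6% and 69.9% of the PBS mean. All 3 C. albicans libraries lie below all 3 PBS libraries in each gene, which the naming rule required.

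Some genes crossed the detection threshold. In 29 genes all PBS libraries were under 1 TPM and all C. albicans libraries at 1 TPM or more, and in 10 the reverse. Among the former, Art2a, which RefSeq lists as a transcribed pseudogene, had 1, 6 and 0 reads with PBS and 41, 34 and 45 with C. albicans (log2 fold change 1.69, SE 0.21, adjusted p = 0.000186). Hcar2, the niacin receptor gene, had 7, 8 and 9 reads against 37, 49 and 62 (log2 fold change 1.22, SE 0.19, adjusted p = 0.0011). Ch25h, which makes 25-hydroxycholesterol, rose by 0.94, and the placental growth factor gene Pgf by 0.94. Of the 10 genes in the other direction Mir7026 alone passed, and it lost its call in 4 of the 6 fits without 1 knockout library.

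The same fit was used to compare the response with that of wild type, in which 4942 of the 10921 genes passed, 1771 higher and 3171 lower. If the resting vehicle differed between the genotypes, its effect cannot be told apart from that of genotype here. Of the 452 genes raised in the knockout 388 were also higher in wild type, 17 were lower and 47 did not pass. Of the 367 lowered genes 288 were lower, 11 were higher and 68 did not pass. The difference of the responses (knockout minus wild type) passed in 1563 genes, 14.3% of those tested, and in 2523 without wild-type C. albicans replicate 1. Among the 77 genes raised at least 2-fold, the difference was below 0 and passed in 56, was above 0 and passed in 4, and did not pass in 17. Without that replicate these counts were 59, 4 and 14. The median log2 fold change of the 77 was 1.44 in the knockout and 2.12 in wild type.

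**Figure D4:**
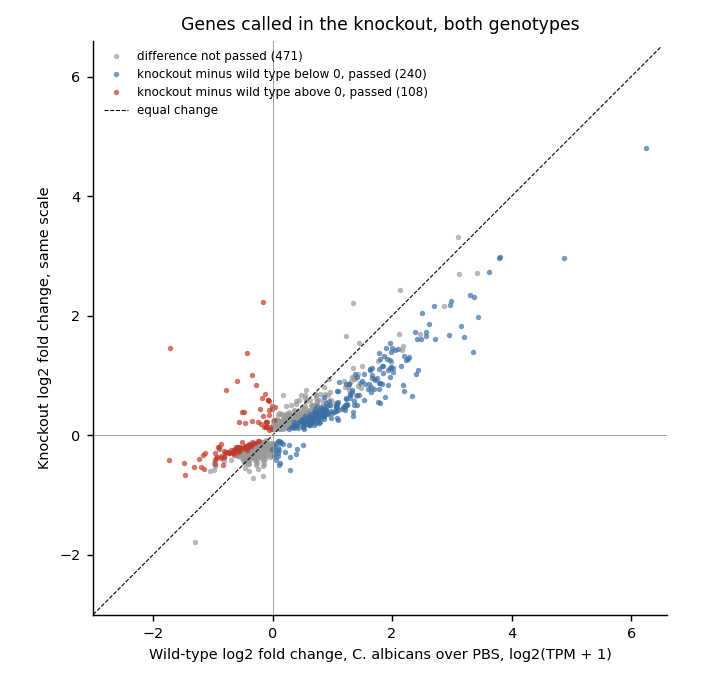
Log2 fold change with C. albicans in the knockout (vertical) against wild type (horizontal), on the log2(TPM + 1) scale, for the 819 genes called in the knockout. Blue points (240) have a knockout minus wild-type difference below 0 that passed, red points (108) one above 0 that passed, and grey points (471) one that did not pass. Most large rises lie under the dashed line of equal change.

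The size of the shortfall varied between genes that rose in both genotypes. Clec4e rose by 1.65 in the knockout and 3.21 in wild type, where it stood at 59.8, 56.1 and 52.9 TPM with PBS and 395, 610.0 and 611 TPM with C. albicans (difference -1.56, adjusted p = 0.000139). Lsp1, an actin-binding protein gene of leukocytes, rose by 0.74 against 2.21 (difference -1.47, adjusted p = 2.69e-06), and Slc7a11, the cystine transporter gene, by 0.66 against 2.34 (difference -1.68, adjusted p = 0.000779). The knockout rise of Slc7a11 lost its call in 12 settings, among them each of the 6 fits without 1 knockout library (adjusted p up to 0.131). For Nlrp3 the difference was smaller, -0.45 (adjusted p = 0.002). For Tnfsf9 (-0.70, adjusted p = 0.169), Irf1 (-0.22, adjusted p = 0.143), Egr1 (-0.72, adjusted p = 0.111) and Fcrls (0.43, adjusted p = 0.148) it did not pass, which does not show that the genotypes responded alike.

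In 28 genes the 2 genotypes moved in opposite directions, each past the threshold, and the difference passed too. Erdr1, a gene at the pseudoautosomal end of the sex chromosomes, stood at 121, 124 and 135 TPM with PBS and 220.4, 206 and 218 TPM with C. albicans in the knockout and rose by 0.76 (SE 0.07, adjusted p = 1.14e-05). In wild type it stood at 258, 265 and 308 TPM with PBS and 175, 152 and 155 TPM with C. albicans and fell by 0.78. Mid1, a ubiquitin ligase gene at the same chromosome end, rose by 0.84 in the knockout and fell by 0.28 in wild type. For both genes the 2 genotypes already differed in level with PBS, at 127 against 277 TPM for Erdr1 and 10.5 against 29.6 TPM for Mid1, and reads from copies on both sex chromosomes cannot be told apart. Igfbp4, which binds insulin-like growth factors, Fcgrt, the neonatal Fc receptor gene, and Aif1, encoding the macrophage protein Iba1, rose by 0.39, 0.23 and 0.24 and fell in wild type by 0.47, 0.55 and 0.35. Pdpn, encoding podoplanin, and Ccr1, a chemokine receptor gene, fell by 0.23 and 0.29 and rose in wild type by 0.41 and 0.21, but the knockout falls lost their calls in 6 and 5 of the 6 fits without 1 knockout library. Of the 15 named genes of this kind, Erdr1, Mid1, Igfbp4, Fcgrt and Aif1 kept their knockout call under all 20 settings, and the other 10 lost it in some.

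**Figure D5:**
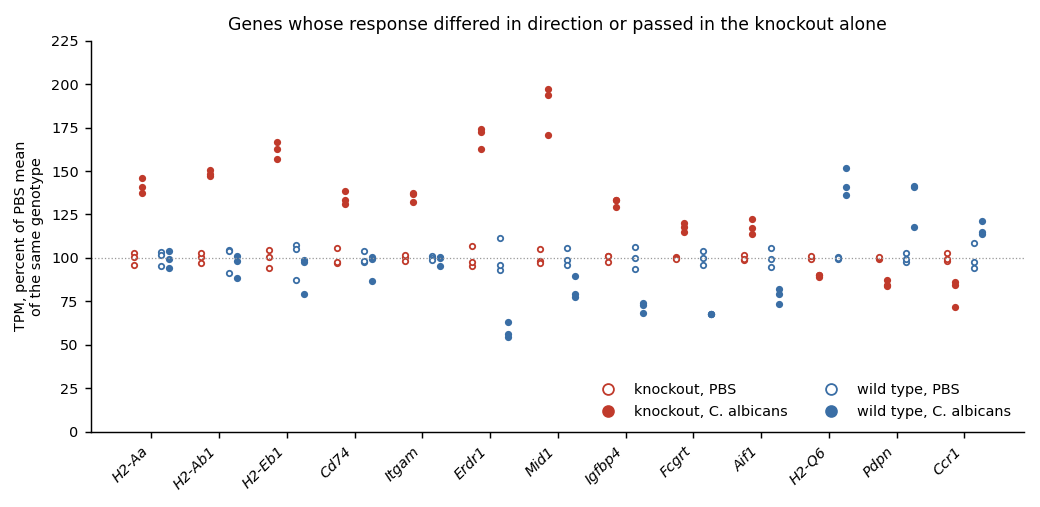
TPM as percent of the PBS mean of the same genotype for 13 genes, with knockout libraries in red and wild-type libraries in blue, PBS as open and C. albicans as filled points, 3 libraries each. The class II genes and Itgam rose in the knockout and did not pass in wild type. Erdr1 to Aif1 rise in the knockout and fall in wild type, and H2-Q6 to Ccr1 do the reverse. Each genotype is scaled to its own PBS mean, so differences in level between genotypes are not shown.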

How the data were processed

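Polyadenylated RNA was sequenced from 12 libraries in 4 groups of 3, grouped by genotype and treatment labels. The submitters' processing notes name the mm10 build, STAR 2.7.5a, DESeq2 1.34.0, cutadapt 2.6 and CASAVA 1.8. They name no read counter, strand setting or annotation, so reads of overlapping and antisense genes may not be separated. The authors deposited TPM values, which sum to the same total in each library. The authors' columns for 1 comparison, per the file headers a mean normalised signal, a log2 fold change with its error, a Wald score and p-values, were not used for results. Of the nonzero values 99.8% of 171648 were within 0.01 of a whole read after division by the TPM of 1 read, and these reads gave the depths.

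Genes with at least 1 TPM in 3 or more of the 6 knockout libraries were tested on log2(TPM + 1), so fold changes of low genes are understated. limma 3.58.1 in R 4.3.3 fitted 1 mean per group over all 12 libraries, with a trend of variance on level, and gave the moderated tests of the knockout response, the wild-type response and their difference. Every adjusted p in the text is from limma with Benjamini-Hochberg adjustment over all tested genes, and "passed", "rose" and "fell" mean an adjusted p under 0.05. The fit was also run on simulated reads with known changes, in which all libraries shared the same small spread. No simulated library stood apart as wild-type C. albicans replicate 1 does, so that run does not cover its effect. Alternatives were other pseudocounts, filters and scalings, the variance trend off, the 6 knockout libraries alone, the replicate number as a block, and each library left out.

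The members, the 52 gene lists and the tests were chosen with earlier results of these data known. Named genes were the 25 largest rises and 15 largest falls with no overlap of groups and at least 5 TPM in the higher group (small RNA genes left out), up to 6 members per list by p, genes crossing 1 TPM, and up to 15 each of the largest differences between genotypes in each direction and of the genes with opposite signs. Other list members were named after their values were seen. Promoter and microRNA sequences and gene positions are from RefSeq, GRCm38.p6. A few results are not reported here.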

Additional observations from a re-analysis of the deposited data

Results flagged for a closer look

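The response to C. albicans differed between knockout and wild type, by limma's test of the difference, in 1563 genes. Titles of the resting libraries name DMSO in the knockout and PBS in wild type, so genotype and a possible vehicle effect cannot be told apart. The values below are the knockout log2 fold change minus that of wild type for the named genes whose own knockout response passed as well. That knockout call held in every alternative tested for 8 of 15 genes named for a difference above 0. It held for 12 of 15 below 0 and for 5 of 15 with opposite signs. The difference itself held in 14, 15 and 15. Ankrd50, Fgfr1 and H2-Q6 lost the knockout call in each of the 6 fits without 1 knockout library. Wild-type C. albicans replicate 1, which differs from the other two, enters each of them.

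Genes whose knockout response lay above that of wild type included several that were lower in wild type. A difference above 0 does not mean a rise in the knockout. Engase, Arrdc3, Dbp and Enc1 fell there, but less than in wild type. Over the alternatives their knockout log2 fold changes were -0.45 to -0.37, -0.48 to -0.42, -0.39 to -0.28 and -0.45 to -0.36. Engase, a glycosidase gene, had a difference of 1.33, Tmem176b, encoding a membrane protein of myeloid cells, 1.35, and the apolipoprotein gene Apoc1 1.50. Erdr1 differed by 1.54 and Mid1 by 1.12. The arrestin-domain gene Arrdc3 differed by 1.02, the circadian factor gene Dbp by 0.84, Enc1 by 0.83 and Gm13710 by 0.89. Igfbp4 differed by 0.86, Fcgrt by 0.78, Aif1 by 0.58, Ankrd50 by 0.66 and Sdf2l1 by 0.48. H2-Eb1 differed by 0.81. Saa3 fell less in the knockout than in wild type, by 0.30 against 1.14, a difference of 0.84. The microRNA genes Mir6905, Mir199a-1 and Mir3092 had differences of 3.17, 2.38 and 1.81, and are short genes in which 1 read is worth more TPM than in most.

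The named genes whose knockout response lay below that of wild type included 3 chemokine genes. The chemokine genes Cxcl3, Cxcl1 and Cxcl2 had differences of -1.95, -1.91 and -1.44. Slc7a11, whose knockout rise lost its call in 12 settings, had -1.68, Clec4e -1.56, Lsp1 -1.47, Gpr84 -1.46, Ptgs2 -1.33 and Cd69 -1.27. Traf1, an adaptor of TNF receptors, had -1.37 and the macrophage factor gene Spic -1.35. Flrt3 had -1.34, Bcl2a1d -1.21 and Ifi205 -1.25, the last 2 from families of close copies. Among genes that fell in the knockout and rose in wild type, Fgfr1 had -0.71, H2-Q6 -0.67, Uxt -0.65, Pdpn -0.64 and Ccr1 -0.49.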

How the results depend on the processing

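The count of changed genes, 819, was 1440 when only the 6 knockout libraries were fitted and 427 to 1515 with single libraries left out, lowest without knockout PBS replicate 3 and highest without wild-type C. albicans replicate 1. Raised genes numbered 320 to 670 over all 20 alternatives, and those changed at least 2-fold 63 to 100. Lowered genes, 367 in the report, numbered 781 in the 6 knockout libraries alone, 234 with no filter on low values, 183 with median-ratio scaling, 230 with upper-quartile scaling, and 99 to 845 with single libraries left out. With upper-quartile scaling 69.6% of calls were higher. The difference between genotypes, 1563 genes, was 1041 (without knockout PBS replicate 1) to 2523 (without wild-type C. albicans replicate 1) with single libraries left out. Higher calls outnumbered lower calls in the report (452 and 367), but not in the 6 knockout libraries alone (659 and 781) or without wild-type C. albicans replicate 1 (670 and 845). No named gene that passed in the report or under an alternative changed sign. The cause of these shifts was not tested. With a replicate block 566 genes passed, 386 higher and 180 lower, and the difference passed in 1199. The labels number replicates alike in both treatments, but same-numbered knockout libraries correlated in their deviations at 0.05, -0.03 and -0.03, so the numbers were not taken as pairs. Of the 231 named genes that passed, 199 could be tested under every alternative, and 148 of these passed in each. The other 32 were not tested with a filter of 5 TPM. Depth limits genes near 1 TPM, where a value rests on few reads.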
